A study of Mus musculus with 11 samples.

Results

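The GIMAP family was followed in vTreg53 Treg cells that had been moved into new hosts and then exposed to their surrogate agonist. Its members were the 8 rows of the gene count table named Gimap1, Gimap3, Gimap4, Gimap5, Gimap6, Gimap7, Gimap8 and Gimap9, out of 52997 rows. All 8 passed the filter on low counts, which left 12932 genes to test. Treg cells of vTreg53 Tg+ C57BL/6 mice, which carry the TCR chains of a single Treg clone from visceral fat and a Foxp3-GFP reporter, were transferred into CD45.1 B6 mice. After 6 weeks the recipients received CFA/Fat1562 subcutaneously and, 1 week later, IFA/Fat1562 intraperitoneally, or the adjuvants without the peptide. Fat1562 is a designed peptide that the vTreg53 TCR recognizes on the MHC class II molecule of B6 mice. The sample labels call the control mice unimmunized and name PBS, while the methods describe adjuvant alone, and the latter name is used here. They give male mice and an age of 15 weeks for every library. Donor clonotype+ Treg cells were sorted from pooled spleen and lymph nodes (Spl/LN) or from epididymal visceral adipose tissue (VAT), 1000 cells to a library. Of the 11 libraries, 3 came from Spl/LN and 2 from VAT of mice given adjuvant alone, and 3 from each tissue of mice given adjuvant/Fat1562. All groups share one transgenic TCR, so they model one clone and not a polyclonal Treg population. The labels number the libraries but do not tie them to separate mice, so the p-values measure the spread between these libraries.

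GIMAPs, the GTPases of immunity-associated proteins, are septin-like GTPases made mainly by lymphocytes, and their genes sit side by side in one cluster. They are known for keeping lymphocytes alive. Loss of Gimap5 or Gimap1 depletes peripheral T cells, and GIMAP proteins sit on intracellular membranes, among them those of mitochondria and lysosomes. Several members bind one another or proteins of the Bcl2 family and of autophagy.

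In the GENCODE vM21 annotation of GRCm38, the 8 genes lie on chromosome 6 within 123618 bases, chr6:48647234-48770851. From the low to the high coordinate they run Gimap8, Gimap9, Gimap4, Gimap6, Gimap7, Gimap1, Gimap5 and Gimap3, with 6 on the plus strand and 2, Gimap6 and Gimap3, on the minus strand. Gimap4 (ENSMUSG00000054435.16) spans chr6:48684549-48692060 and Gimap7 (ENSMUSG00000043931.10) spans chr6:48718621-48724636, with Gimap6 between them at chr6:48701582-48708225. Gimap3 (ENSMUSG00000039264.9) closes the cluster at chr6:48764464-48770851.

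RefSeq promoter windows of build GRCm38.p6, 250 bases before to 50 after the transcription start, were found for 8 of 8 members, in 9 windows because Gimap8 has more than one start. Windows of 3 members are shown because Gimap4 and Gimap7 had the largest fold changes after Fat1562 and Gimap3 moved apart from them. The sequences run 5′ to 3′ on the strand of the gene, and capitals mark matches on either strand to the letter patterns given next. They are copied from RefSeq at chr6:48684328-48684627 (plus) for Gimap4, chr6:48718371-48718670 (plus) for Gimap7 and chr6:48770802-48771101 (minus) for Gimap3.
Gimap4: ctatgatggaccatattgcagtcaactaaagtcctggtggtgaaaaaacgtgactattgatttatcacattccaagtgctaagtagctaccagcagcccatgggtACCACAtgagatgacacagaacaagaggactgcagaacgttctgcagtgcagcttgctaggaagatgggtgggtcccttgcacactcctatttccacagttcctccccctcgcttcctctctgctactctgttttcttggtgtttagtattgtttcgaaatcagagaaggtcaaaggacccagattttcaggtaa
Gimap7: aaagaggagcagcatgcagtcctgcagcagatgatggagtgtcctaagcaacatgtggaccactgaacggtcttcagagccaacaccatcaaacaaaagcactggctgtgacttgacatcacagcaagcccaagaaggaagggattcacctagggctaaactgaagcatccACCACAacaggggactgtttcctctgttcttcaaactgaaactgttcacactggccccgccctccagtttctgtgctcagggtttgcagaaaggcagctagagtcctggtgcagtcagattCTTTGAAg
Gimap3: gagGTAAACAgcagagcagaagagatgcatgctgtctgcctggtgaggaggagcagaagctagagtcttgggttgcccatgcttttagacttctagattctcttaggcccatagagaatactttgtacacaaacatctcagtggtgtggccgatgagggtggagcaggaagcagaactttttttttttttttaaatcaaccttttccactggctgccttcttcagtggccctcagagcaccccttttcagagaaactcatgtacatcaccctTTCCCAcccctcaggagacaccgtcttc
Both strands were searched for 6 patterns named after the factors that read them. The RUNX pattern TGTGGT, capitalized here as its reverse complement, stood 145 bases before the start of Gimap4 and 79 bases before that of Gimap7. It was also present in the Gimap1 window, so 3 of the 8 members held it, against 16.8% of 32851 mouse promoter windows. The ETS pattern CGGAAG was in the windows of Gimap1, Gimap6 and Gimap8, against 16.9% of all windows. Gimap3 held the FOXO pattern GTAAACA at its far end (3.65% of all windows) and the RBPJ pattern TGGGAA after the start (25.6%). Gimap7 held the TCF/LEF pattern CTTTGAA after its start, and 8.65% of all windows held CTTTGAA or CTTTGAT. The KLF pattern GGGTGTG (7.95% of all windows) was in the window of 0 members, which says only that these letters are not in these bases. The ETS and RUNX patterns did not overlap within these windows, and a match describes the letters, not a bound site.

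Read assignment between neighbours bears on some of these rows. Gm28053, a read-through gene at chr6:48718607-48752644, shares 81 exon bases with Gimap7, 198 with Gimap1 and 153 with Gimap5. Gimap1os lies on the opposite strand and covers 36.0% of the exon bases of Gimap1, and the reads of this overlap cannot be told apart here. Of all 38-base stretches of a member's transcripts, the length of 1 read, 37.1% for Gimap1, 11.97% for Gimap3 and 8.87% for Gimap5 also occur in other genes. For Gimap3 most of these are shared with Gimap5. The share is 1.90% or less for Gimap7, Gimap6 and Gimap8 and 0% for Gimap4 and Gimap9.

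**Figure D1:**
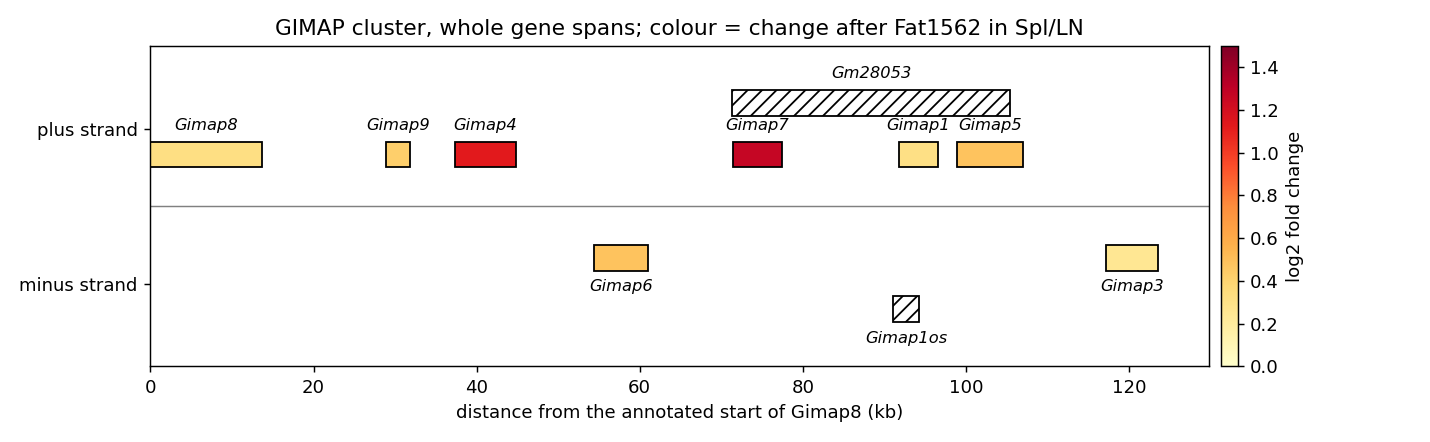
The annotated span of each gene is drawn along the cluster, with distance from the start of Gimap8 in kb on the x axis and the strand on the y axis. Colour gives the log2 fold change of Fat1562 against adjuvant alone in Spl/LN, which is darkest for Gimap7 (1.27) and Gimap4 (1.13), and hatched boxes are the overlapping genes Gm28053 and Gimap1os.

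Total counts ran from 4490242 to 6570057 per library. Foxp3, the Treg lineage factor, had 6777 to 9995 counts in each library, and Cd4 and Cd3e were also abundant. Of the markers of other cells, Adipoq of adipocytes reached 9 counts and Col1a1 of fibroblasts 39. Among B cell markers Ms4a1 reached 6 counts, but Cd79b had 42 to 223 in every library. Among CD8 T cell markers Cd8a reached 7 counts, but Cd8b1 had 62 to 158 in every library. Among myeloid markers Csf1r reached 19 counts, Lyz2 73 and Itgam 80. GIMAP genes are also active in endothelium, and its markers Cdh5, Tie1 and Kdr reached 4, 1 and 7 counts. Emcn reached 15 and Egfl7 31, while Pecam1, which T cells can also express, had 188 to 615. The summed level of the 6 endothelial markers ran from 463 to 548 normalized counts in Spl/LN adjuvant alone, from 499.5 to 581 in Spl/LN adjuvant/Fat1562, from 247 to 312 in VAT adjuvant alone and from 430.2 to 612 in VAT adjuvant/Fat1562. Ighm had 5547 to 22887 counts and Jchain up to 1388, and the B cell sum ran from 6178 to 30436 between the VAT adjuvant alone libraries. In bulk libraries, fewer cells with a transcript and less transcript per cell cannot be told apart.

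The GIMAP genes were among the abundant transcripts of these cells. Together they took 0.448% ± 0.060 (SD, n = 3) of all counts in Spl/LN adjuvant alone, 0.651% ± 0.025 (n = 3) in Spl/LN adjuvant/Fat1562, 0.464% ± 0.034 (n = 2) in VAT adjuvant alone and 0.471% ± 0.014 (n = 3) in VAT adjuvant/Fat1562. Every Spl/LN adjuvant/Fat1562 library, at 0.632% to 0.679%, was above the other 8, which reached at most 0.502%. On the scale of normalized counts per kb of exon, averaged over the 11 libraries, Gimap4 stood above 99.5% of the 12681 tested genes with a known length. Gimap8, the lowest member, stood above 89.8%.

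With adjuvant alone in Spl/LN the order per kb of exon was Gimap3 (2983 ± 441 normalized counts per kb, n = 3), Gimap4 (2236 ± 421), Gimap6 (1168 ± 176), Gimap1 (960.04 ± 92.7), Gimap7 (548 ± 114), Gimap9 (529 ± 66.6), Gimap5 (281 ± 47.1) and Gimap8 (204 ± 24.6). Among neighbours in this order, the libraries of Gimap6 and Gimap1 overlapped, as did those of Gimap7 and Gimap9. In Spl/LN adjuvant/Fat1562, Gimap4 came first at 4888 ± 430.2 per kb, above Gimap3 at 3551 ± 161, and their libraries did not overlap. Gimap7 then reached 1319 ± 129 per kb and overlapped with Gimap1 at 1189 ± 60.01. In VAT adjuvant alone Gimap3 (3208 ± 210, n = 2) and Gimap4 (2947 ± 318) overlapped. The order between genes depends on the length used, since per kb of coding sequence Gimap3 stayed first in Spl/LN adjuvant/Fat1562, at 10135 ± 460.1 against 8617 ± 759 for Gimap4.

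The first question was what the agonist peptide did to these transcripts in lymphoid organs. Gimap4 and Gimap7 more than doubled, and Gimap5, Gimap6 and Gimap9 rose 1.34- to 1.40-fold. Of the 8 members, 5 passed an adjusted p of 0.05 as higher after Fat1562 in Spl/LN, and 0 as lower, with all 8 estimates above 0, while 2.58% of all tested genes were called higher. The median log2 fold change of the members was 0.45, beside 0.00 over all tested genes. In 7 members, all but Gimap3, every Fat1562 library exceeded every control library, which held in 11.4% of all genes in this direction. Tests are edgeR's quasi-likelihood test with Benjamini-Hochberg adjustment over all tested genes. Errors of log2 fold changes are standard errors derived from that test, as the absolute log2 fold change over the square root of its F value.

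Gimap4, a regulator of lymphocyte death, had 3221, 4639 and 4463 normalized counts in the Spl/LN adjuvant alone libraries and 8221, 9798 and 8917 after Fat1562. The groups were far apart, and the log2 fold change was 1.13 ± 0.12 (2.19-fold, adjusted p = 2.74e-05). Gimap7, which can stimulate the GTPase activity of other GIMAPs, went from 987, 1324 and 1512 to 2817, 3399 and 2981. Its log2 fold change was 1.27 ± 0.12 (2.41-fold, adjusted p = 2.01e-05). The lowest Fat1562 library of Gimap7 was thus well above the highest control library.

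Gimap6, which binds a GABARAP-type protein of the autophagosome, had 3491, 4722 and 4039 normalized counts with adjuvant alone and 5463, 5878 and 5789 after Fat1562. Its log2 fold change was 0.48 ± 0.09 (adjusted p = 0.00676). Gimap5, a lysosomal member needed for T cell survival, had 952, 1202 and 1338 against 1523, 1674 and 1681 (0.48 ± 0.12, adjusted p = 0.0289). Gimap9 had 786, 993 and 826 against 1151, 1148 and 1202 (0.43 ± 0.10, adjusted p = 0.0259). In these 3 genes the groups did not overlap, and the estimates were smaller than those of Gimap4 and Gimap7. The remaining members were not called: Gimap1 had 2680, 3248 and 2922 against 3474, 3843 and 3647 (0.31 ± 0.09, adjusted p = 0.0522). Gimap8, whose protein carries several GTPase domains, had 650.1, 806 and 809.9 against 954, 956 and 914 (0.32 ± 0.10, adjusted p = 0.0995). Gimap3 had 6518, 8788 and 7753 against 9241, 9516 and 8699.6 (0.25 ± 0.09, adjusted p = 0.140), and its highest control library exceeded the lowest Fat1562 library.

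**Figure D2:**
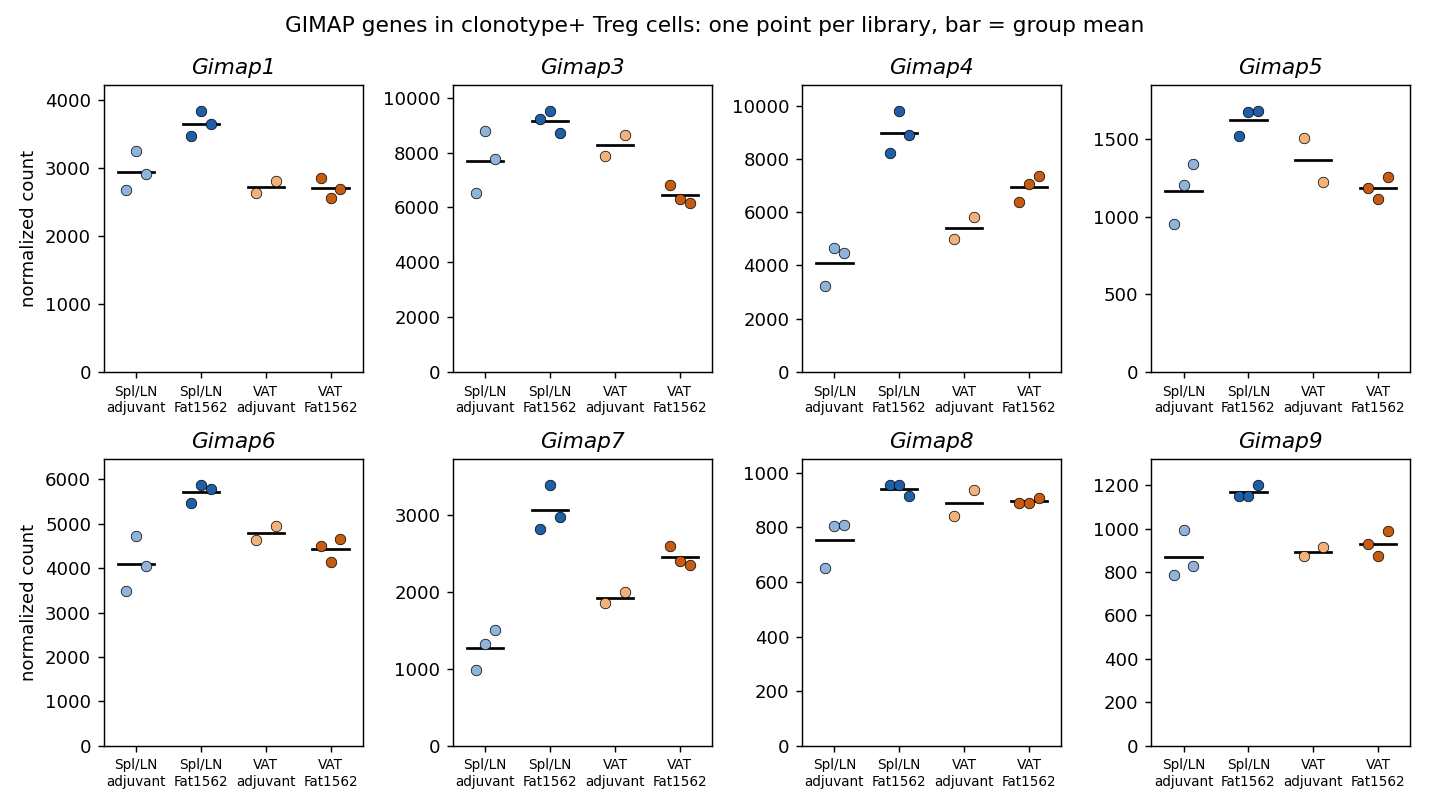
Each panel plots 1 GIMAP gene, with the normalized count on the y axis from 0, 1 point per library and a bar at the group mean, for the 4 groups on the x axis. Gimap4 and Gimap7 show the widest gap between Spl/LN adjuvant alone and Spl/LN adjuvant/Fat1562, and in VAT the Gimap3 libraries lie lower after Fat1562 (6166 to 6823) than with adjuvant alone (7885 to 8648).

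One control library stood apart, since Spl/LN adjuvant alone replicate 1 was the lowest of its group in 8 of 8 members. Without it, 3 members were called higher, with log2 fold changes of 0.98 for Gimap4 (adjusted p = 3.47e-05), 1.12 for Gimap7 (adjusted p = 2.81e-05) and 0.39 for Gimap6 (adjusted p = 0.0257). Gimap5 (0.36, adjusted p = 0.0893) and Gimap9 (0.36, adjusted p = 0.0840) were no longer called. The count was also 3 without Spl/LN adjuvant/Fat1562 replicate 2 or 3. The same control library held the most counts of H2-Aa, an MHC class II gene of antigen-presenting cells. H2-Aa had 186, 8 and 30 counts in Spl/LN adjuvant alone, 3, 0 and 0 in Spl/LN adjuvant/Fat1562, 47 and 15 in VAT adjuvant alone, and 7, 24 and 47 in VAT adjuvant/Fat1562. Among the myeloid markers the summed level was 32.3 to 140 normalized counts in Spl/LN adjuvant alone and 93.4 to 106 in Spl/LN adjuvant/Fat1562. The value of 140 was that of Spl/LN adjuvant alone replicate 1. In the 3 libraries of that group Lyz2 had 73, 7 and 15 counts, but Itgam had 29, 11 and 45. Of the other markers, Klrb1c of NK cells was called higher after Fat1562 in Spl/LN, with 1, 2 and 4 counts against 17, 28 and 38. But Ncr1, also of NK cells, had 0, 0 and 3 against 0, 0 and 0, and Klrd1 had 3, 0 and 0 against 3, 5 and 2. The part of such cells in the GIMAP values was not tested.

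In VAT the same immunization left most of the family without a called change. Gimap3 fell, and it was the 1 member called there, where 3.97% of all tested genes were called lower. It went from 7885 and 8648 normalized counts to 6823, 6321 and 6166, a log2 fold change of -0.36 ± 0.10 (adjusted p = 0.0360). The Gimap3 call did not hold without either VAT adjuvant alone library, or without VAT adjuvant/Fat1562 replicate 2 or 3, with a log2 fold change between -0.42 and -0.29 in all alternatives run. Gimap3 was the 1 member lower without overlap, a pattern seen in 20.0% of all genes. Gimap4 had 5000 and 5827 against 6377, 7045 and 7372 (0.36 ± 0.13, adjusted p = 0.108). Gimap7 had 1857 and 2003 against 2608, 2403 and 2359.9 (0.35 ± 0.14, adjusted p = 0.145). These 2 members were higher without overlap, as were 21.1% of all genes, but neither passed the threshold, at unadjusted p-values from edgeR's quasi-likelihood test of 0.0136 and 0.0219. DESeq2 called 0 members higher there, whereas Gimap4 was called without a filter on low counts (adjusted p = 0.00604), with the replicate block (adjusted p = 0.0498), with only the groups compared (adjusted p = 0.0371) and without Spl/LN adjuvant alone replicate 1 (adjusted p = 0.0278). Gimap7 was called in the last 2 of these (adjusted p = 0.0454 and 0.0481). Gimap6 had 4631 and 4949 against 4498, 4144 and 4667 (-0.11 ± 0.11, adjusted p = 0.612). Gimap5 had 1507 and 1221 against 1183, 1116 and 1259 (-0.20 ± 0.13, adjusted p = 0.425). In the same comparison 4 markers of other cells were called, Jchain (log2 fold change -6.17, adjusted p = 0.00866) and Ighm (-1.19, adjusted p = 0.0414) lower and Pecam1 (1.00, adjusted p = 0.00112) and Itgam (3.23, adjusted p = 0.0497) higher after Fat1562. Jchain had 58 and 1388 counts with adjuvant alone and 5, 3 and 29 after Fat1562, and the B cell sum after Fat1562 was 6404 to 8617 normalized counts. Pecam1 had 270 and 188 counts against 520, 579 and 452. Of its list, Kdr had 4 and 4 against 3, 4 and 0, and Cdh5 1 and 2 against 4, 0 and 0. Egfl7 had 11 and 4 against 16, 5 and 17. Itgam had 0 and 5 counts against 53, 12 and 17, and Cd14 0 and 0 against 1, 5 and 5. Lyz2 went the other way, with 14 and 11 against 1, 2 and 6. The part of these markers in the VAT values of the GIMAP genes was not tested. For Gimap1, Gimap8 and Gimap9 the estimates were -0.01 ± 0.10, 0.01 ± 0.12 and 0.06 ± 0.12, with groups that overlapped.

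The response to Fat1562 was then compared between tissues by the interaction, the log2 effect in VAT minus that in Spl/LN. All 8 estimates were below 0, and 5 members were called, where 2.02% of all tested genes were called lower. The difference was -0.92 ± 0.18 for Gimap7 (adjusted p = 0.00817), -0.77 ± 0.17 for Gimap4 (adjusted p = 0.0168), -0.68 ± 0.18 for Gimap5 (adjusted p = 0.0398), -0.61 ± 0.14 for Gimap3 (adjusted p = 0.0168) and -0.59 ± 0.14 for Gimap6 (adjusted p = 0.0239). It was -0.37 ± 0.15 for Gimap9 (adjusted p = 0.221), -0.32 ± 0.13 for Gimap1 (adjusted p = 0.194) and -0.31 ± 0.15 for Gimap8 (adjusted p = 0.331). The median over the members was -0.60, beside 0.01 over all tested genes. Gimap7 was called in all 19 alternatives, whereas without Spl/LN adjuvant/Fat1562 replicate 2 it was the 1 member called. The count was 2 without VAT adjuvant alone replicate 2 or VAT adjuvant/Fat1562 replicate 2, and 3 without Spl/LN adjuvant/Fat1562 replicate 3 or VAT adjuvant alone replicate 1.

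**Figure D3:**
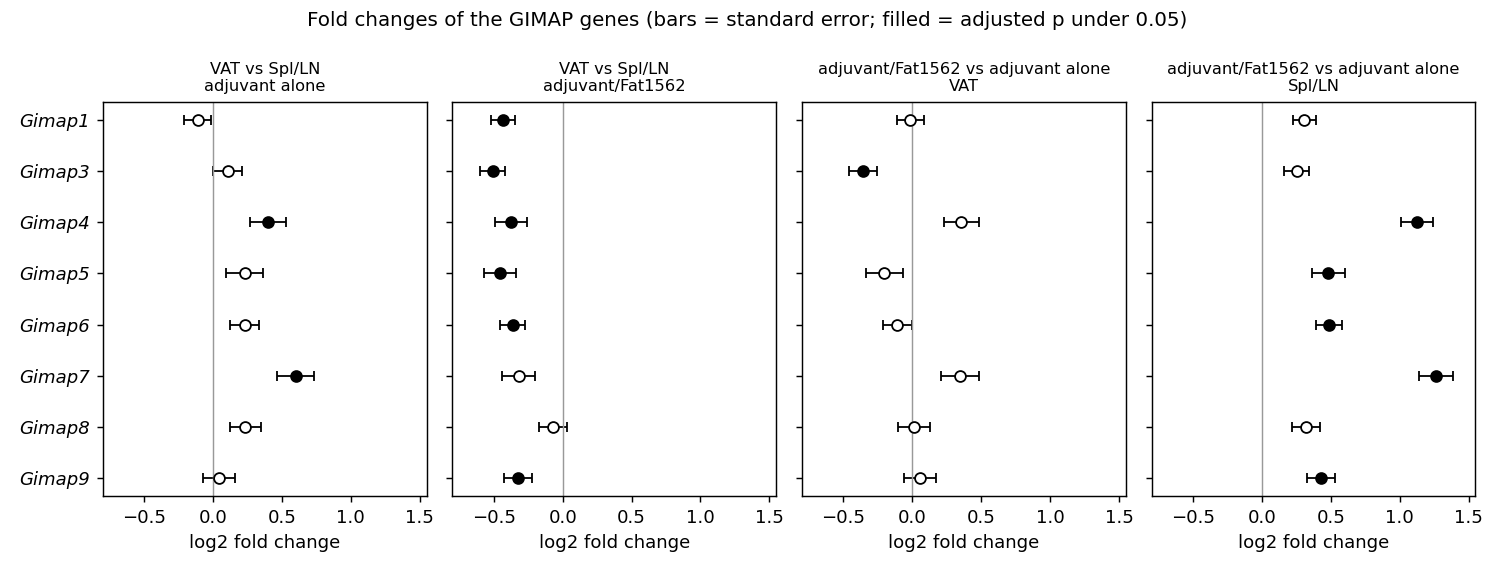
Points give the log2 fold change of each GIMAP gene on the x axis in the 4 comparisons, bars the standard error, and filled points an adjusted p under 0.05. After Fat1562 the estimates lie between 0.25 and 1.27 in Spl/LN and between -0.36 and 0.36 in VAT, and VAT against Spl/LN lies below 0 for all 8 genes with adjuvant/Fat1562.

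Between tissues with adjuvant alone, few members differed. Gimap4 (0.40 ± 0.13, adjusted p = 0.0418) and Gimap7 (0.60 ± 0.14, adjusted p = 0.00519) were called higher in VAT than in Spl/LN, 2 of 8 members, where 9.09% of all tested genes were called higher. These 2 and Gimap8 (0.23 ± 0.12, adjusted p = 0.192) had groups that did not overlap, as did 20.9% of all genes in this direction. The other estimates were 0.23 ± 0.13 for Gimap5, 0.23 ± 0.10 for Gimap6, 0.10 ± 0.10 for Gimap3, 0.04 ± 0.12 for Gimap9 and -0.11 ± 0.10 for Gimap1. Of these, the sign turned with the scaling for Gimap3 and Gimap9 with library totals or quantile normalization and for Gimap6 with quantile normalization. The Gimap4 call was lost in 8 of 20 alternatives. Its estimate was 0.081 (adjusted p = 0.738) with quantile normalization, 0.25 (adjusted p = 0.179) with library totals and 0.41 (adjusted p = 0.0917) with only the groups compared. It was 0.25 (adjusted p = 0.114) without Spl/LN adjuvant alone replicate 1, 0.50 (adjusted p = 0.0533) and 0.28 (adjusted p = 0.320) without VAT adjuvant alone replicate 1 or 2, and 0.40 (adjusted p = 0.0565 and 0.0566) without Spl/LN adjuvant/Fat1562 replicate 3 or VAT adjuvant/Fat1562 replicate 2. Gimap7 was not called without VAT adjuvant alone replicate 2 (adjusted p = 0.0587), which left 0 members called. Pecam1 (-0.89, adjusted p = 0.00124) and Itgam (-3.14, adjusted p = 0.0352) were called lower in VAT in this comparison. Of the same lists, Csf1r had 17, 5 and 6 counts in Spl/LN and 1 and 0 in VAT. But Lyz2 had 73, 7 and 15 against 14 and 11, and Kdr 1, 0 and 6 against 4 and 4. The part of these markers was not tested.

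With adjuvant/Fat1562 all 8 members were lower in VAT than in Spl/LN. The 3 VAT libraries lay below the 3 Spl/LN libraries in each member, a pattern found in 17.4% of all genes in this direction. Of the 8, 6 were called lower, where 6.73% of all tested genes were called lower, and the median log2 fold change was -0.37 beside -0.01 over all genes. Gimap3 showed the lowest estimate, -0.51 ± 0.09 (adjusted p = 0.000889), with 6166 to 6823 normalized counts in VAT and 8699.6 to 9516 in Spl/LN. Gimap1, needed for mature T and B cells, had -0.43 ± 0.09 (adjusted p = 0.00193), at 2561 to 2853 in VAT and 3474 to 3843 in Spl/LN. The values were -0.45 ± 0.12 for Gimap5 (adjusted p = 0.0141), -0.36 ± 0.09 for Gimap6 (adjusted p = 0.0136), -0.37 ± 0.11 for Gimap4 (adjusted p = 0.0356) and -0.33 ± 0.10 for Gimap9 (adjusted p = 0.0398). Gimap7 (-0.32 ± 0.12, adjusted p = 0.0912) and Gimap8 (-0.07 ± 0.10, adjusted p = 0.715) were not called. Only Gimap1 and Gimap3 were called in all 20 alternatives; without Spl/LN adjuvant/Fat1562 replicate 2 or VAT adjuvant/Fat1562 replicate 2 the count was 2, and without Spl/LN adjuvant/Fat1562 replicate 3 it was 3. The markers Cd79b (-1.18, adjusted p = 0.00589) and Klrb1c (-4.12, adjusted p = 0.00863) were also called lower in VAT. Of the same lists, Klrd1 had 3, 5 and 2 counts in Spl/LN and 0, 0 and 1 in VAT. But Cd79a had 25, 6 and 18 against 18, 7 and 28, and Cd8b1 86, 62 and 152 against 103, 90 and 150. The part of these markers was not tested. This comparison and the response in Spl/LN share the Spl/LN adjuvant/Fat1562 libraries.

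The makeup of the family differed between libraries with and without Fat1562 in both tissues, given here as a description without a test. Shares of the summed counts and ratios between members do not depend on the scaling of the libraries. Gimap4 made up 17.9% ± 1.09 of the family's counts in Spl/LN adjuvant alone and 26.1% ± 1.03 in Spl/LN adjuvant/Fat1562, and 20.6% ± 1.07 (n = 2) and 26.7% ± 2.01 in VAT. Gimap3 went the other way, from 33.6% ± 0.728 to 26.7% ± 1.27 in Spl/LN and from 31.5% ± 0.290 (n = 2) to 24.8% ± 1.37 in VAT. Gimap7 had 5.55% ± 0.727 and 8.93% ± 0.416 in Spl/LN, and 7.35% ± 0.020 (n = 2) and 9.46% ± 0.518 in VAT.

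The ratio of Gimap4 to Gimap3 counts was 0.494, 0.528 and 0.576 in the Spl/LN adjuvant alone libraries and 0.890, 1.03 and 1.02 after Fat1562. In VAT it was 0.634 and 0.674 with adjuvant alone and 0.935, 1.11 and 1.20 after Fat1562. Libraries with and without the peptide thus did not overlap in either tissue, although the summed family level in VAT was 26278 ± 1475 normalized counts (n = 2) with adjuvant alone and 25978 ± 557 (n = 3) after Fat1562. The ratio of Gimap7 to Gimap3 likewise went from 0.151 to 0.195 in Spl/LN adjuvant alone to 0.305 to 0.357, and from 0.232 to 0.236 in VAT adjuvant alone to 0.380 to 0.383. By contrast, Gimap7 to Gimap4 was 0.310 ± 0.027, 0.341 ± 0.006, 0.358 ± 0.020 (n = 2) and 0.357 ± 0.046 across Spl/LN adjuvant alone, Spl/LN adjuvant/Fat1562, VAT adjuvant alone and VAT adjuvant/Fat1562. These pairs were chosen after the values were seen, so the ratios are given without a test. Of single genes in VAT, 21.1% were higher and 20.0% lower after Fat1562 without overlap, and the share for ratios was not computed.

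**Figure D4:**
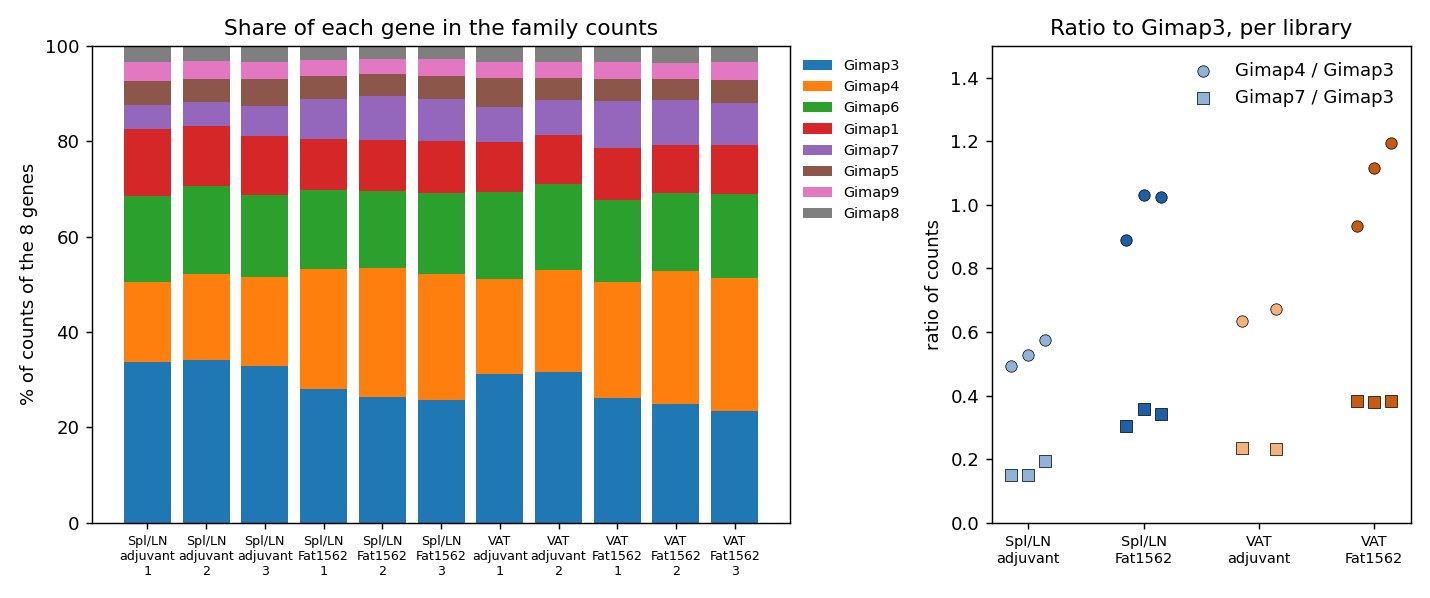
The left panel stacks the percent of the family's counts that each GIMAP gene takes in each of the 11 libraries, and the right panel plots the ratio of Gimap4 (circles) and Gimap7 (squares) to Gimap3 counts, 1 point per library. Both ratios are higher with Fat1562 than with adjuvant alone in each tissue, at 0.890 to 1.20 against 0.494 to 0.674 for Gimap4.

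Across the 11 libraries the members moved together to different degrees, as a description over libraries that share their groups. Pearson's r of log2 levels ran from 0.29 to 0.97 over the 28 pairs, with a median of 0.75. Gimap4 and Gimap7 were the closest pair (0.97), followed by Gimap6 and Gimap9 (0.93). Gimap3 had the lowest values, with Gimap7 (0.29), Gimap4 (0.34) and Gimap8 (0.41).

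Among the other tested genes, those with the profile most like the mean of the members over the 11 libraries were Ubn1 (r = 0.92), Man2b1 (r = 0.89), Ptpn7 (r = 0.88) and Zfp646 (r = 0.88). Man2b1 encodes a lysosomal mannosidase and Ptpn7 a phosphatase of lymphocytes. Ptpn7 had 3743 ± 407 normalized counts in Spl/LN adjuvant alone, 5635 ± 216 in Spl/LN adjuvant/Fat1562, 3610 ± 87.9 (n = 2) in VAT adjuvant alone and 3617 ± 399 in VAT adjuvant/Fat1562. The least alike were H2-Aa (r = -0.92) and March7 (r = -0.90). The list depends on the measure, since ranks in place of Pearson's r kept 2 of the 10 most alike genes and leaving out Spl/LN adjuvant alone replicate 1 kept 3.

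Genes of survival and autophagy that work with GIMAP proteins were read from a list of 15, all tested. After Fat1562 in Spl/LN, 1 rose and 1 fell, where 2.58% of all tested genes were called higher and 1.40% lower. Bcl2l11, which encodes the death-promoting Bim, rose from 92.1 ± 18.8 to 227 ± 51.6 normalized counts (log2 fold change 1.30 ± 0.23, adjusted p = 0.00284). Bcl2, which protects from death, fell from 215 ± 46.8 to 83.0 ± 29.7 (-1.38 ± 0.27, adjusted p = 0.00720). The median of the list was 0.14, beside 0.00 over all genes. In VAT, Bcl2l11 was the 1 gene called, higher, from 61.9 ± 20.04 (n = 2) to 140.01 ± 12.9 (1.18 ± 0.28, adjusted p = 0.0120), where 4.32% of all tested genes were called higher, and the median was -0.09 beside 0.01. With adjuvant alone, 4 were higher and 1 lower in VAT than in Spl/LN, beside 9.09% and 7.17% of all tested genes. Bcl2l1, the gene of Bcl-xL, was higher at 2327 ± 454 (n = 2) against 1074 ± 57.9 (1.12 ± 0.14, adjusted p = 2.59e-05), and Sqstm1, an autophagy receptor, was higher by 0.77 ± 0.09. Bcl2 was lower there by a log2 fold change of -1.57 ± 0.32. With adjuvant/Fat1562, 2 were higher and 1 lower in VAT, beside 8.26% and 6.73% of all tested genes. For the interaction, 0 of the 15 were called, beside 1.70% higher and 2.02% lower of all tested genes, with 2 at an unadjusted p under 0.05. DESeq2 also called 0.

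Genes of resting T cells, 20 of which were tested, include the regulators of naive and circulating lymphocytes. After Fat1562 in Spl/LN, 1 was called higher and 2 lower, beside 2.58% and 1.40% of all tested genes. Ccr7, the homing receptor for lymph nodes, fell from 854 ± 114 to 101 ± 62.7 (-3.07 ± 0.29, adjusted p = 1.28e-05), and Foxp1 fell from 746 ± 98.4 to 352 ± 26.8 (-1.08 ± 0.14, adjusted p = 0.000254). Ets1, a factor that reads the ETS pattern, was higher at 11477 ± 697 against 9165 ± 445.05 (0.32 ± 0.07, adjusted p = 0.0111). That pattern was in the windows of Gimap1, Gimap6 and Gimap8 and not in those of the other members. The part of Ets1 in the GIMAP values was not tested. The median of this list was -0.03, while that of the GIMAP genes was 0.45. In VAT 3 rose and 5 fell after Fat1562, beside 4.32% and 3.97% of all tested genes. Among them were Btg2 (-1.67 ± 0.13), Klf2 (-1.47 ± 0.34) and Foxp1 (-1.32 ± 0.16), which fell, and Satb1 (1.02 ± 0.20), which rose. Ets1 also rose in VAT (0.30 ± 0.08, adjusted p = 0.0229). The interaction was called for Ccr7 (3.59 ± 0.45), Btg2 (-1.88 ± 0.18) and Klf2 (-1.79 ± 0.45), where 1.70% of all tested genes were called higher and 2.02% lower. It was not called for Ets1 (-0.03 ± 0.10, adjusted p = 0.940). Between tissues 3 were higher and 6 lower in VAT with adjuvant alone, beside 9.09% and 7.17% of all tested genes. With adjuvant/Fat1562, 4 were higher and 7 lower, beside 8.26% and 6.73%.

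Septins, the cytoskeletal GTPases that GIMAPs resemble, had 12 rows in the table, of which 9 were tested. After Fat1562 in Spl/LN 0 of these passed in edgeR's test, beside 2.58% higher and 1.40% lower of all tested genes. Of the septins, 6 had an unadjusted p under 0.05, and DESeq2 called 3 higher. In VAT, Sept7 rose from 1750 ± 23.0 (n = 2) to 2664 ± 175 (0.61 ± 0.09, adjusted p = 0.000393) and Sept6 fell from 1197 ± 29.8 (n = 2) to 908 ± 87.9 (-0.40 ± 0.10, adjusted p = 0.0248). These were 1 call in each direction, beside 4.32% higher and 3.97% lower of all tested genes. Between tissues 4 were higher and 1 lower in VAT with adjuvant alone, where 9.09% and 7.17% of all tested genes were called. With adjuvant/Fat1562, 2 were higher and 1 lower, where 8.26% and 6.73% were called. For the interaction 0 septins were called, beside 1.70% higher and 2.02% lower of all tested genes, with 4 at an unadjusted p under 0.05. DESeq2 called 1.

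The table also holds other rows within the cluster. Gimap1os, on the strand opposite to Gimap1, had 235, 275 and 250.2 normalized counts in Spl/LN adjuvant alone and 332, 421 and 322 after Fat1562 (0.50 ± 0.16, adjusted p = 0.0915). With adjuvant/Fat1562 it was lower in VAT, at 199, 177 and 236 (-0.81 ± 0.16, adjusted p = 0.00199). Its direction in both comparisons was that of Gimap1, with which its exons overlap. The read-through gene Gm28053 had 77.2 to 173 with adjuvant alone in Spl/LN and 133 to 231 after Fat1562 (0.35 ± 0.27, adjusted p = 0.541).

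Of the 10 nearest annotated coding genes, 5 on each side of the cluster, 5 had enough counts to be tested: Repin1, Zfp775, AI854703, Tmem176b and Tmem176a. After Fat1562 in Spl/LN 0 of these 5 were called by edgeR, beside 2.58% higher and 1.40% lower of all tested genes. In the same comparison 0 had an unadjusted p under 0.05 and DESeq2 called 0. The log2 fold changes ran from -0.24 ± 0.33 for AI854703 to 0.69 ± 0.34 for Repin1. These rows are low, with Repin1 at 54.7 ± 24.8 and 87.3 ± 31.1 normalized counts, so their standard errors exceed those of the members. Tmem176b, the neighbour beyond Gimap3, was higher in VAT than in Spl/LN with adjuvant alone (1.20 ± 0.24, adjusted p = 0.00175), as was Tmem176a (1.38 ± 0.45, adjusted p = 0.0425). In this comparison 9.09% of all tested genes were called higher. Tmem176b had 86.1 ± 17.6 normalized counts in Spl/LN adjuvant alone and 197 ± 19.2 (n = 2) in VAT adjuvant alone.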

How the data were processed

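Smart-seq2 libraries were made from 1000 double-sorted clonotype+ Treg cells each, with 18 cycles of PCR and paired reads of 38 bases. The authors deposited one table of raw counts, as whole numbers, with gene symbols in 52997 rows and 11 columns that matched the sample labels and 0 left unused. The submitters' processing notes name mm10, STAR 2.5.4 and featureCounts, while Cuffquant appears in the methods with a filter of normalized reads, which had to exceed 10 and to vary by a coefficient below 0.7. The strand setting and the annotation used for counting are not given in the sources used here. No molecular identifiers are named, so amplification error is not covered by the intervals.

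After each library was scaled to the mean total, genes whose mean exceeded 10 in 1 group or more entered edgeR 4.0.16 in R 4.3.3 (TMM, quasi-likelihood, prior count 0.125, one fit of the 4 groups). The Benjamini-Hochberg adjustment covered the 12932 genes tested, and an adjusted p under 0.05 was a call. A normalized count is the count scaled by the TMM effective library size to a library of mean size. Total counts were 4490242 to 6570057, and the common biological coefficient of variation was 19.1%. The profile for alike genes used log2(normalized count + 1). The alternatives were other filters (none, mean above 50, coefficient of variation under 0.7), median-of-ratios factors, library totals, quantile normalization with limma 3.58.1, DESeq2 1.42.0, only the groups compared, a block for replicate number, and each library left out. The fits were tested on simulated data.

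The members and the gene lists were chosen with earlier results of these data known. Genes named were the 8 members, other rows within the cluster, the 5 nearest coding genes on each side, up to 4 called genes with the largest fold change of each list, and the genes most and least like the mean member profile. H2-Aa counts by library were added after the values were seen. Some list genes are not reported here.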

Additional observations from a re-analysis of the deposited data

Results flagged for a closer look

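The effect of Fat1562 differed between VAT and Spl/LN in 5 GIMAP genes, by the interaction in edgeR's quasi-likelihood test. The log2 effect in VAT minus that in Spl/LN was -0.92 for Gimap7, -0.77 for Gimap4, -0.68 for Gimap5, -0.61 for Gimap3 and -0.59 for Gimap6, with adjusted p-values from 0.00817 to 0.0398. In Gimap3 the estimates had opposite signs in the tissues, 0.25 ± 0.09 in Spl/LN and -0.36 ± 0.10 in VAT. In Gimap4 and Gimap7 both estimates were above 0, and the one in Spl/LN was the larger. The values without Spl/LN adjuvant alone replicate 1 were -0.77 for Gimap7, -0.63 for Gimap4, -0.56 for Gimap5, -0.51 for Gimap3 and -0.50 for Gimap6, and Gimap5 was then not called (adjusted p = 0.0645). Dixon's test for outlying libraries was not run, since no group had 4 libraries.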

How the results depend on the processing

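Of 792 values of single GIMAP genes under the alternatives, 696 kept their direction and their side of the threshold, 62 lost the call, 19 gained one and 15 changed sign, and the cause was not tested. The calls of Gimap4, Gimap6 and Gimap7 after Fat1562 in Spl/LN held in all 20 alternatives. For VAT against Spl/LN with adjuvant alone, the members called higher were 1 and not 2 with library totals, with quantile normalization and with only the groups compared, and 1 member, Gimap1, was called lower with quantile normalization. After Fat1562 in VAT, the members called higher were 1 without a filter, 1 with the replicate block and 2 with only the groups compared, and those called lower were 0 with the replicate block. Leaving out 1 library gave 0 to 3 members higher in VAT with adjuvant alone, 2 to 7 lower in VAT with adjuvant/Fat1562, 3 to 6 higher after Fat1562 in Spl/LN, 0 to 2 higher and 0 to 1 lower after Fat1562 in VAT, and 1 to 5 lower for the interaction. Where this left 1 VAT adjuvant alone library, it was assumed to vary like the other groups.

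Signs changed only for estimates no larger than 0.23 on the log2 scale, none of them called. In VAT against Spl/LN with adjuvant alone, Gimap3 was -0.045 with library totals and -0.19 with quantile normalization, Gimap6 was -0.093 with quantile normalization, and Gimap9 was -0.11 and -0.052 under these scalings and -0.020 to 0.15 with a library left out. After Fat1562 in VAT, Gimap1 was 0.023 with library totals, 0.050 with quantile normalization and -0.060 to 0.037 with a library left out. Gimap8 was -0.0026 with median-of-ratios factors, -0.0023 with DESeq2, -0.0014 with the replicate block and -0.063 to 0.092 with a library left out. Library totals moved the median of all genes in the first of these comparisons to -0.18, from -0.03. Over all genes, those called after Fat1562 in Spl/LN were 515 in the fit reported, 793 without a filter and 793 with DESeq2, and for the interaction 481 and, with DESeq2, 783. With a library left out they were 190 to 502 after Fat1562 in Spl/LN (190 without Spl/LN adjuvant/Fat1562 replicate 2), 240 to 575 for the interaction (240 without VAT adjuvant alone replicate 1), 508 to 1398 after Fat1562 in VAT, and, for VAT against Spl/LN, 1259 to 2114 with adjuvant alone and 1289 to 2377 with adjuvant/Fat1562.

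Whether the replicate numbers pair the libraries was not settled. The 15 same-numbered pairs had correlations of deviations from -0.04 to 0.06, with 0 over 0.1, beside -0.06 to 0.04 in the 30 other pairs. Pairs of different treatment cannot come from 1 mouse. Same-numbered pairs across tissues within a treatment had 0.037 and 0.030 with adjuvant alone. With adjuvant/Fat1562 they had 0.055, 0.030 and 0.030, so mice shared between tissues are not excluded. The replicate block, beyond the calls above, ended the call of Gimap9 in VAT against Spl/LN with adjuvant/Fat1562. With 2 to 3 libraries a group and a biological coefficient of variation of 19.1%, the standard errors of the members' log2 fold changes ran from 0.09 to 0.14 in the 4 comparisons and from 0.13 to 0.18 for the interaction.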
